A study of Homo sapiens with 6 samples.

Results

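Integrins are the receptors by which cells hold on to the matrix around them and, in some cases, to each other. Each receptor is a pair of one alpha and one beta chain, and the pairing decides the ligand. ITGB1 pairs with many alpha chains and gives receptors for collagen, laminin and fibronectin. ITGAV pairs with ITGB1, ITGB3 or ITGB5, among others, and binds ligands with an RGD motif, such as vitronectin and fibronectin. ITGB4 pairs with ITGA6 alone and anchors epithelial cells to laminin through hemidesmosomes. Lung cancer lines are known to carry several of these pairs, and chains without a partner are largely kept inside the cell.

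The members are 10 integrin subunit genes, of 60617 genes in the deposited table: the alpha chains ITGA2, ITGA3, ITGA4, ITGA5, ITGA6 and ITGAV, and the beta chains ITGB1, ITGB3, ITGB4 and ITGB5. They were chosen by name, as the rows whose Ensembl identifiers carry these symbols, and all 10 passed the filter on low counts, as did 17223 genes in all. RNA was sequenced in 6 libraries from NCI-H1299, an established cell line from a human lung tumour, labelled lung adenocarcinoma. The labels call 3 of them FuHsi knockdown, with Sh1 in their titles, and 3 wild type, with Puro in their titles. They spell out neither Sh1 nor Puro, name no construct other than Sh1 and give no time or dose. The Sh1 libraries are therefore 1 knockdown line or pool as far as the labels say, and nothing states that replicates came from separate cultures. The p-values therefore rest on the spread among these libraries alone, and that spread may be technical. The study profiled the cells to look for a role of FuHsi in the nucleolus, and no row of the table carries that name, so the knockdown itself was not analysed here.

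The Sh1 libraries held 24231515 to 27900051 counts, against 30735547 to 34306849 in the Puro libraries. Libraries of 1 group correlated at 0.990 to 0.992 in log2 CPM, and libraries of different groups at 0.963 to 0.969. Levels are given as CPM, each count as a share of the library's total, scaled with TMM (edgeR's trimmed-mean factors). A gene was called at a Benjamini-Hochberg adjusted p under 0.05 in edgeR's quasi-likelihood test over all tested genes. By that rule 61.6% of tested genes were called, 30.7% higher and 30.9% lower in knockdown, and the groups did not overlap for 65.3%. Of the called genes 49.9% were higher. With library size alone that share is 64.4%, and the median log2 fold change of all tested genes is 0.18, against 0.031 with TMM, so differences under that size depend on the scaling. In bulk RNA, fewer cells of a kind and less RNA per cell cannot be told apart. Of 11 markers of lung adenocarcinoma and epithelium, 4 passed the filter. NKX2-1, SFTPA1, SFTPB, SFTPC, EPCAM, CDH1 and KRT19 did not, and SFTPA1 and SFTPC had 0 counts. Of those that passed, 2 were called higher and 1 lower, with a median log2 fold change of 0.83. NAPSA had 0.632 CPM in Sh1 and 0.0665 CPM in Puro, and KRT7 had 4.10 CPM in Sh1 and 1.24 CPM in Puro, both higher. NAPSA passed the filter through Sh1 alone, where it was high, and that favours a call in this direction. KRT8 had 320 CPM in Sh1 and 494 CPM in Puro and was lower, and KRT18 was not called. Of 5 mesenchymal markers 3 were higher (ZEB1, FN1 and SNAI2) and 1 lower, with a median of 0.45. The lower one, VIM, had 839 CPM in Sh1 and 1366 CPM in Puro, and CDH2 was not called. Markers of other cell types were low. The 6 fibroblast markers summed to 2.84 to 4.63 CPM in Sh1 and 1.73 to 2.47 CPM in Puro. Of the 3 that passed the filter, 2 were called higher. The 5 endothelial markers summed to 3.6 to 3.79 CPM in Sh1 and 2.17 to 2.53 CPM in Puro. Of the 3 that passed, 1 was called higher. Genes this low may pass the filter through Sh1 alone, which favours calls in that direction, and that was not tested for these markers. Both sums separated the groups, and their part in the integrin results was not tested. The 6 immune markers summed to 11.7 to 13.3 CPM in Sh1 and 11.8 to 12.3 CPM in Puro, most of it ITGAM. Of the 2 that passed, 1 was called higher. The 5 platelet markers summed to 2.19 to 3.11 CPM in Sh1 and 2.23 to 2.7 CPM in Puro, with GP9, PF4 and PPBP at 0.

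The integrin genes moved in both directions. Of the 10 members, 4 were called higher and 5 lower in knockdown, and ITGA4 was not called. ITGA2, ITGA5, ITGAV and ITGB3 rose, by 1.31 to 1.66-fold. ITGB1, ITGA3, ITGA6, ITGB4 and ITGB5 fell, the last by the least. No member changed by 2-fold or more, where 9.16% of tested genes were called and at least 2-fold higher and 3.12% at least 2-fold lower. The 9 calls stand beside a background of 61.6% over all tested genes. The same 9 members had groups that did not overlap, as had 65.3% of tested genes. In the most abundant of 5 equal classes of tested genes, which holds ITGA3, ITGA5, ITGA6, ITGAV, ITGB1 and ITGB5, 26.7% were called higher and 60.3% lower. The members' median log2 fold change was -0.035, beside 0.031 over all tested genes. It turned to 0.12 with library size alone and to 0.025 with upper-quartile factors, where the median of all tested genes was 0.18 and 0.091.

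**Figure D1:**
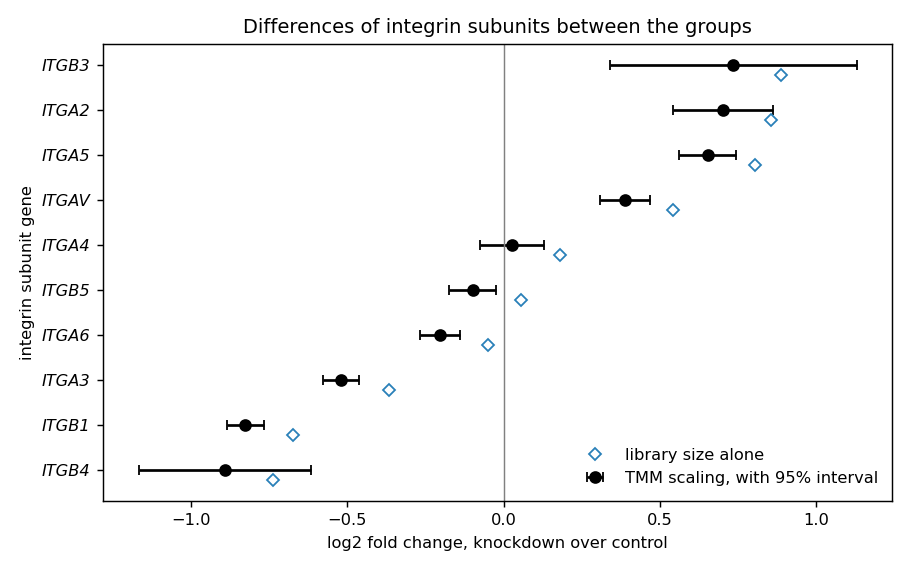
Log2 fold change of each integrin subunit, knockdown over control, with 95% intervals under TMM scaling (filled circles) and the value with library size alone (open diamonds). ITGB3, ITGA2, ITGA5 and ITGAV lie above 0 and ITGA3, ITGB1 and ITGB4 below it under both scalings, while ITGB5 crosses 0 with library size alone.

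The sequence shown for the integrin genes is a short stretch of the ITGB1 3′ UTR. ITGB1 had the most significant difference among the members, and it holds the 7-base word CTATTGA, which an earlier look at these data linked to lower levels in knockdown. The stretch lies at chr10:32901290-32901318 on the minus strand of GRCh38, in the 3′ UTR of ITGB1, and is printed 5′ to 3′ in the sense of the transcript with the word in capitals.
ITGB1: ttcttcctggaCTATTGAaatcaagctta
The word starts at base 335 of a 3′ UTR of 1323 bases in GENCODE release 29. In a search of the transcript strand only, 1 of the 10 members held CTATTGA in its annotated 3′ UTR. ITGA3, ITGA6, ITGB4 and ITGB5, which also fell, did not hold it, nor did any member that rose. Of 13239 tested protein-coding genes with an annotated 3′ UTR, 8.85% held it. Their median log2 fold change was -0.099, against -0.016 for genes without it, and 43.7% against 36.8% were called lower. The word was taken from these same data, so this split is not a separate result. Their 3′ UTRs were longer, with a median of 3459 against 1226 bases. The word ACACATC, which the same earlier look linked to higher levels, was in 0 of the 10 members and in 10.1% of these genes. A match is a string of letters and does not show a working site.

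ITGB1, the beta chain shared by most of the alpha chains here, lies on GRCh38 chromosome 10 (ENSG00000150093, 32900319 to 33005792, minus strand). It had 553, 547 and 541 CPM in the Sh1 libraries, against 948, 994 and 970 CPM in the Puro libraries. The groups were far apart, and the spread inside each was small. Its level was 547 ± 5.98 CPM in Sh1 and 971 ± 22.9 CPM in Puro (mean ± SD, n = 3 each), 1.77-fold lower in knockdown. The fitted log2 difference was -0.83 ± 0.03 (SE; edgeR adjusted p 9.98e-33), and 5.86% of tested genes had a lower one. ITGB1P1, a processed pseudogene of ITGB1 that can take some of its reads, had 1.82 CPM in Sh1 and 3.53 CPM in Puro and fell by 0.96 on the log2 scale (edgeR adjusted p 0.000114). ITGB1-DT, a non-coding gene that overlaps ITGB1 on the other strand, had 3.63 CPM in Sh1 and 5.32 CPM in Puro and fell by 0.55. Both rows hold few counts beside ITGB1 itself.

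ITGA3, the alpha chain of a laminin receptor with ITGB1, was the second most abundant member per length. Its gene spans 50055968 to 50090481 on the plus strand of chromosome 17. It had 769, 793 and 768 CPM in Sh1, against 1116, 1113 and 1112 CPM in Puro. All Sh1 libraries were below all Puro libraries, with a fitted log2 difference of -0.52 ± 0.03 (SE; edgeR adjusted p 6.33e-24).

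ITGA6, which joins ITGB1 or ITGB4 in laminin receptors, had 355, 363 and 353 CPM in Sh1, against 404, 422 and 407 CPM in Puro. The groups did not overlap, but the fall was small, at -0.20 ± 0.03 (SE) on the log2 scale. Under library-size scaling it was -0.050 and not called (edgeR adjusted p 0.151). The row shares 5.37% of its exonic bases with other annotated genes, ITGA6-AS1 among them, and whether counting used strand is not given.

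ITGB4, the beta chain of hemidesmosomes, was thinly expressed. Its gene spans 75721328 to 75757818 on the plus strand of chromosome 17. Sh1 libraries had 193, 124 and 115 counts, which is 6.53, 4.89 and 4.5 CPM. Puro libraries had 319, 292 and 317 counts, which is 9.76, 9.0 and 11 CPM. The first Sh1 library was the highest of its group and still below all Puro libraries. The fitted log2 difference of -0.89 ± 0.14 (SE; edgeR adjusted p 8.78e-08) was the lowest of the members.

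ITGB5, a partner of ITGAV for vitronectin, had 169, 180 and 165 CPM in Sh1, against 182, 183 and 185 CPM in Puro. The highest Sh1 library lay just under the lowest Puro library. The fitted log2 difference was -0.10 ± 0.04 (SE; edgeR adjusted p 0.0206). The call was lost with upper-quartile factors (-0.038), with library size alone (0.055), with a filter of at least 1 CPM in 3 libraries (-0.078) and without Sh1 library 1 (-0.094), Sh1 library 3 (-0.077) or Puro library 3 (-0.096).

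**Figure D2:**
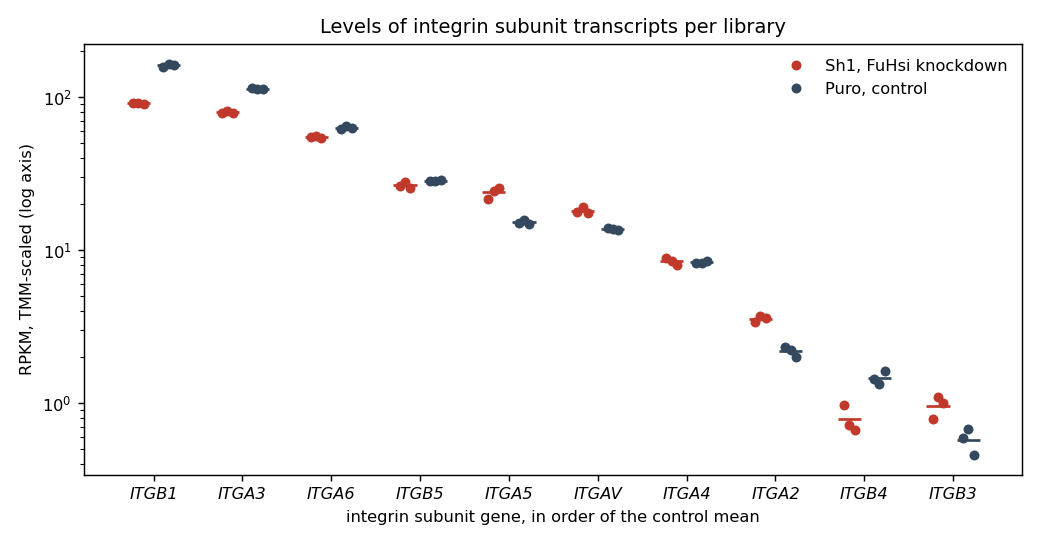
Level of each integrin subunit per length (RPKM, log axis) in each library, with Sh1 (FuHsi knockdown) left of Puro (control) for every gene and a line at each mean of 3 libraries. ITGB1 and ITGA3 are the highest in both groups, and ITGB4 and ITGB3 change places at the bottom. ITGB3 is drawn over its full annotated length, shared bases included.

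ITGA5, the alpha chain of the fibronectin receptor, rose. It lies on chromosome 12, from 54395261 to 54419460 on the minus strand. It had 164, 184 and 194 CPM in Sh1, against 114, 119 and 112 CPM in Puro. Every Sh1 library was above every Puro library, and the Sh1 libraries were more spread out. Its level of 181 ± 15.01 CPM in Sh1 and 115 ± 4.0 CPM in Puro (mean ± SD, n = 3 each) gave a fitted log2 difference of 0.65 ± 0.04 (SE; edgeR adjusted p 4.90e-16).

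ITGAV, the alpha chain of RGD receptors, had 145, 156 and 144 CPM in Sh1, against 115, 113 and 112 CPM in Puro. It lies on chromosome 2, from 186590065 to 186680901 on the plus strand. The groups did not overlap, and the fitted log2 difference was 0.39 ± 0.04 (SE; edgeR adjusted p 1.01e-12). ITGB3, its partner for vitronectin and fibrinogen, was low, rose, and lies on chromosome 17, from 47253846 to 47311816 on the plus strand. Sh1 libraries had 102, 122 and 113 counts, which is 3.45, 4.81 and 4.42 CPM. Puro libraries had 85, 96 and 58 counts, which is 2.60, 2.96 and 2.01 CPM. The lowest Sh1 library was above the highest Puro library, and the fitted log2 difference was 0.73 ± 0.20 (SE; edgeR adjusted p 0.000999). ITGB3 shares 51.6% of its exonic bases with another annotated protein-coding gene, ENSG00000259753, which had 0 counts in every library. Whether reads from the shared bases were counted was not tested.

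ITGA2, the alpha chain of a collagen receptor, had 26.7, 29.1 and 28.5 CPM in Sh1, against 18.4, 17.6 and 15.8 CPM in Puro. Its gene spans 52989326 to 53094779 on the plus strand of chromosome 5. The groups were well apart, with a fitted log2 difference of 0.70 ± 0.08 (SE; edgeR adjusted p 2.41e-11). ITGA4, which binds VCAM1 and fibronectin, had 70.3, 66.6 and 63.3 CPM in Sh1, against 64.9, 64.6 and 67.2 CPM in Puro. The groups overlapped. Its fitted log2 difference was 0.027, with a 95% interval of -0.07 to 0.13 (edgeR adjusted p 0.663). Under library-size scaling it passed, at 0.18 (edgeR adjusted p 0.00174).

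Levels of different genes were compared per length, as RPKM, the TMM-scaled CPM per kilobase of annotated exons. In Sh1 the order was ITGB1 at 91.0 ± 0.995, ITGA3 at 79.2 ± 1.43, ITGA6 at 54.7 ± 0.814, ITGB5 at 26.6 ± 1.22 and ITGA5 at 23.9 ± 1.98 RPKM (mean ± SD, n = 3). ITGAV at 18.1 ± 0.822, ITGA4 at 8.45 ± 0.441, ITGA2 at 3.55 ± 0.161, ITGB3 at 0.962 ± 0.160 and ITGB4 at 0.785 ± 0.159 RPKM followed. In Puro it was ITGB1 at 161 ± 3.80, ITGA3 at 114 ± 0.201, ITGA6 at 62.9 ± 1.46, ITGB5 at 28.4 ± 0.297 and ITGA5 at 15.2 ± 0.528 RPKM. ITGAV at 13.8 ± 0.216, ITGA4 at 8.30 ± 0.180, ITGA2 at 2.18 ± 0.164, ITGB4 at 1.47 ± 0.147 and ITGB3 at 0.574 ± 0.109 RPKM followed there. ITGB5 and ITGA5 overlapped between libraries in Sh1 and not in Puro. ITGB3 and ITGB4 likewise overlapped in Sh1, and their order was turned relative to Puro. If no read from its shared bases was counted, its length is 2128 bases, and whether that holds was not tested. All ITGB3 counts over that length come to 1.99 ± 0.330 RPKM in Sh1 and 1.19 ± 0.226 RPKM in Puro. On that scale ITGB3 would lie above ITGB4 without overlap in Sh1 and overlap it in Puro.

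**Figure D3:**
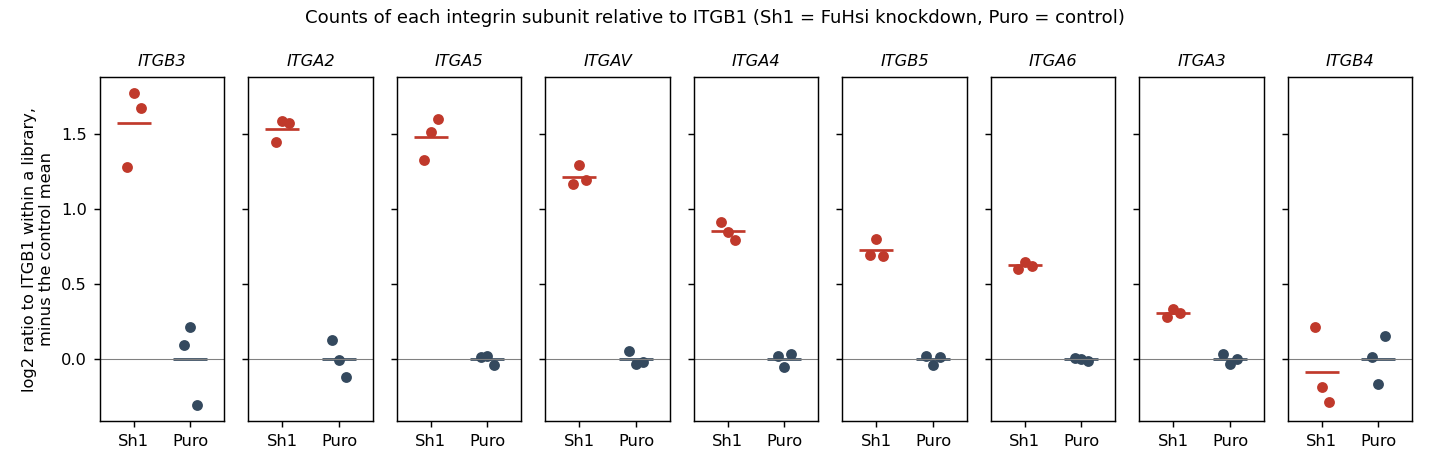
Log2 ratio of each other integrin subunit to ITGB1 within a library, drawn relative to the mean of the Puro libraries, with Sh1 (FuHsi knockdown) left of Puro (control) and a line at each mean. For every subunit but ITGB4 the 3 Sh1 libraries lie above the 3 Puro libraries.

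The balance between chains was read from ratios inside a library, which do not depend on how libraries are scaled. For 8 of the 9 other members the ratio of counts to ITGB1 was higher in every Sh1 library than in every Puro library. The difference in log2 ratio, Sh1 minus Puro, was largest for ITGB3 at 1.57, ITGA2 at 1.53, ITGA5 at 1.48 and ITGAV at 1.21. ITGA4 followed at 0.85, ITGB5 at 0.73, ITGA6 at 0.62 and ITGA3 at 0.31. ITGA5 had a log2 ratio to ITGB1 of -1.60 ± 0.137 in Sh1 and -3.08 ± 0.0332 in Puro (mean ± SD, n = 3 each). Each of these 8 had an exact two-sided permutation p of 0.1, the smallest that 3 against 3 allows, and 0.113 after Benjamini-Hochberg adjustment over the 9 ratios, so none can pass 0.05. ITGB4 differed from ITGB1 by less than its spread, with a log2 ratio of -6.70 ± 0.265 in Sh1 and -6.62 ± 0.161 in Puro, a difference of -0.086 and an exact permutation p of 0.7. All 9 ratios share ITGB1 as denominator and are not separate results.

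Ratios between other chains that pair were added after the values were seen and are given per length without a test. ITGB5 per ITGAV was 1.49, 1.47 and 1.45 in Sh1, against 2.01, 2.06 and 2.11 in Puro. ITGB4 per ITGA6 was 0.0177, 0.0130 and 0.0123 in Sh1, against 0.0233, 0.0206 and 0.0260 in Puro. Neither pair of groups overlapped, and both beta chains were lower relative to their alpha chain in Sh1. ITGB3 per ITGAV was 0.0444, 0.0575 and 0.0573 in Sh1, against 0.0422, 0.0487 and 0.0336 in Puro, and there the groups overlapped. These ITGB3 ratios use its full annotated length, and over its 2128 unshared bases they would be higher in every library. The 6 alpha chains together came to 2.00, 2.11 and 2.08 times ITGB1 in Sh1, against 1.36, 1.32 and 1.33 times in Puro.

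**Figure D4:**
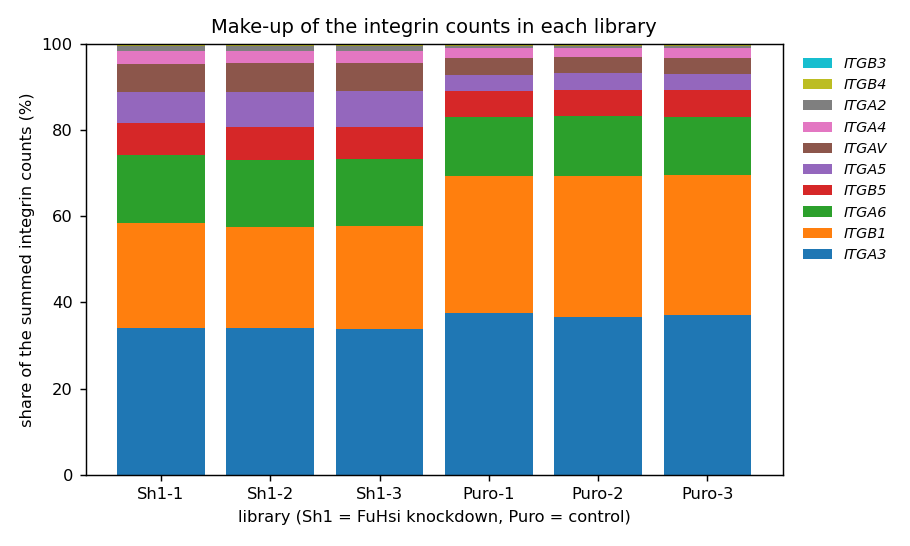
Share of each integrin subunit in the summed counts of the 10 members, in percent, for the 3 Sh1 (FuHsi knockdown) and the 3 Puro (control) libraries. ITGB1 takes 23.5% to 24.4% in Sh1 and 31.9% to 32.7% in Puro, and ITGA5 takes 7.26% to 8.55% in Sh1 and 3.74% to 3.93% in Puro.

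Taken as a sum, the 10 members held 0.241% ± 0.00274 of all counts in Sh1 and 0.284% ± 0.00353 in Puro (mean ± SD, n = 3 each). ITGA3, ITGB1 and ITGA6 held most of that sum in every library. ITGA3 took 34.0% of integrin counts in Sh1 and 37.1% in Puro, and ITGB1 took 23.9% in Sh1 and 32.3% in Puro. ITGA5 took 7.91% in Sh1 and 3.83% in Puro, and ITGAV took 6.50% in Sh1 and 3.78% in Puro.

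The remaining integrin genes were mostly low. Of 16, 10 passed the filter, 3 rose and 2 fell, beside 30.7% higher and 30.9% lower over all tested genes. The median log2 fold change of the tested genes of this list was 0.24. That median was 0.37 without Puro library 1 and 0.11 without Puro library 2, and it turned to -0.048 with a filter of at least 1 CPM in 3 libraries. ITGA1, another collagen-binding partner of ITGB1, had 25.6, 24.8 and 26.4 CPM in Sh1, against 7.07, 7.0 and 9.76 CPM in Puro, a log2 fold change of 1.70. Of its exonic bases 6.39% also belong to PELO, ITGA2-AS1 or further genes. ITGA7, a laminin-binding chain, fell by 1.06, and ITGAE, which with ITGB7 binds E-cadherin, fell by 0.72. The other rises, of ITGAX at 2.10 and ITGB6 at 1.29, were of genes with a mean under 1 CPM in both groups, and both were dropped by that filter. Both passed the main filter only with the Sh1 libraries, where they were higher. That selection favours rises in the count and in the median.

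Proteins that bind integrin tails and build adhesions were split. Of 27 tested, 8 rose and 9 fell, with a median of -0.021, beside 30.7% higher and 30.9% lower over all tested genes. LPXN (leupaxin), a paxillin relative, had 8.88 ± 1.16 CPM in Sh1 and 2.34 ± 0.286 CPM in Puro (mean ± SD, n = 3 each), a log2 fold change of 1.92. TNS2 (tensin), which links tails to actin, rose by 1.54. PARVB (parvin beta), of the complex with ILK, fell by 1.32, and ZYX (zyxin), an adhesion protein, fell by 0.39. VCL (vinculin), which binds talin and actin in adhesions, had 736, 745 and 714 CPM in Sh1, against 340, 313 and 310 CPM in Puro, and was singled out after its values were seen. Its log2 fold change was 1.19, and it shares 11.1% of its exonic bases with a neighbour. TLN1 (talin), the tail-binding activator, fell by 0.14, which is smaller than the shift between scalings. In place of 9, 4 of the list fell with library size alone.

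Of 19 tested adhesion signalling genes, 3 rose and 10 fell, with a median of -0.17, and with library size alone 5 rose and 9 fell. The median ran from -0.18 without Sh1 library 2 to -0.015 with library size alone. All tested genes gave 30.7% higher and 30.9% lower, and the most abundant of the 5 classes 26.7% and 60.3%. RAC1, a GTPase of cell spreading, had 202, 210 and 200 CPM in Sh1, against 536, 520 and 547 CPM in Puro, a log2 fold change of -1.39. CDC42 fell by 0.90, and 59.4% of its exonic bases are also annotated to other genes. PTK2 (focal adhesion kinase), named after its values were seen, fell by 0.65, and FYN, a SRC-family kinase, rose by 0.79. PTK2B, a relative of PTK2, rose by 0.56, and its call was lost with DESeq2, after thinning of counts and without Sh1 library 2.

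Of 10 tested regulators of integrin activity, 2 rose and 5 fell, with a median of -0.086. The share over all tested genes was 30.7% called higher and 30.9% called lower. In the most abundant of the 5 classes it was 26.7% and 60.3%, and in the next class 32.3% and 45.8%. ITGB1BP1, which binds the ITGB1 tail and holds it inactive, fell by 0.72, and HRAS fell by 0.83. ITGB1BP1 shares 33.1% of its exonic bases with ASAP2. KRIT1, a partner of ITGB1BP1, rose by 0.68 and shares 47.9% with other genes. RASSF5, an effector of RAP1, was called at 0.56, but not without a filter, with DESeq2, and not when Sh1 library 1, Sh1 library 3, Puro library 2 or Puro library 3 was left out; 1 of the list then rose. The RASSF5 values of both groups overlapped. Of 18 tested genes for folding and trafficking, 8 rose and 7 fell, with a median of 0.057. CALR (calreticulin), a chaperone, rose by 0.43, and DAB2, an endocytic adaptor, rose by 0.86. VPS35, of the retromer, and RAB4A, of fast recycling, each fell by 0.52. In place of 7, 3 of this list fell with library size alone.

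Among the ligands, of 11 laminin chains 7 rose and 3 fell, with a median of 0.35. That median ran from 0.31 with a filter of at least 1 CPM in 3 libraries to 0.51 with library size alone. Over all tested genes 30.7% were called higher and 30.9% lower. LAMA2 had 57.5, 58.0 and 65.1 CPM in Sh1, against 29.2, 29.1 and 28.5 CPM in Puro, and rose by 1.06, and LAMB2 rose by 0.72. LAMA5 fell by 0.73 and LAMC3 by 0.48. Of 8 tested collagen chains 4 rose and 2 fell, with a median of 0.27. This median rests on few genes. It was 0.61 without Sh1 library 1, 0.53 without Puro library 1 and 0.59 without Puro library 2. It was 0.58 without a filter, 0.57 with DESeq2, 0.43 with library size alone and 0.058 with a filter of at least 1 CPM in 3 libraries. COL4A5 rose by 0.68 and COL5A2 by 0.51. COL6A1 and COL6A2 were called at -0.15 and -0.16, and with library size alone neither was called, at 0.0019 and -0.0016. Of 20 tested RGD ligands and counter-receptors 10 rose and 3 fell, with a median of 0.39. That median ran from 0.27 with DESeq2 to 0.54 with library size alone. SPP1 (osteopontin) rose by 1.25 and CCN2 by 1.19, and FBN2 (fibrillin) fell by 0.77 and LTBP1 by 0.66. FN1 (fibronectin), the ligand of ITGA5 with ITGB1, was named after its values were seen. It had 51.1, 57.4 and 57.9 CPM in Sh1, against 30.6, 29.2 and 27.2 CPM in Puro, a log2 fold change of 0.93. The median over all tested genes was 0.031.

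Of 16 membrane partners of integrins, 5 rose and 8 fell, with a median of -0.13. Among all tested genes 30.7% were called higher and 30.9% lower. In the most abundant of the 5 classes these shares were 26.7% and 60.3%, and in the next class 32.3% and 45.8%. SLC3A2, the heavy chain of amino acid transporters, which binds beta tails, rose by 0.79, and LRP1, an endocytic receptor, rose by 0.39. CD81 and CD151, tetraspanins, fell by 0.35 and 0.31, and SDC4 (syndecan) fell by 0.34. With library size alone 5 of the list fell in place of 8. Of 7 hemidesmosome genes, 3 rose and 2 fell, with a median of -0.028. COL17A1, a collagen of that structure, rose by 0.89 and LAMA3, a chain of its laminin ligand, by 0.55, while PLEC (plectin), which ties ITGB4 to keratins, fell by 0.21. This list shares CD151 with the membrane partners and 3 chains with the laminins. Medians near 0 have no firm sign here. With library size alone those of the adaptors, activity regulators, membrane partners and hemidesmosome genes turned to 0.13, 0.068, 0.023 and 0.13. Without Sh1 library 1 those of the adaptors and hemidesmosome genes turned to 0.0072 and 0.025.

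**Figure D5:**
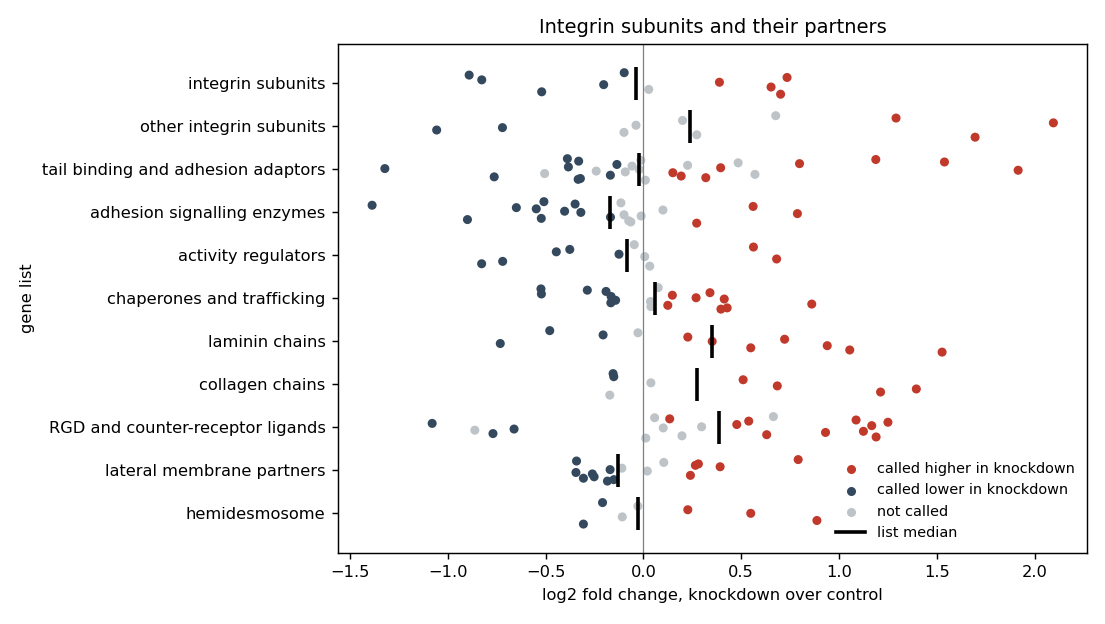
Log2 fold change, knockdown over control, of every tested gene in the integrin list and in each list of partners, with a black bar at the list median. Red points were called higher in knockdown, dark points lower, and grey points were not called. Over other settings the laminin median of 0.35 runs from 0.31 to 0.51. The RGD ligand median of 0.39 runs from 0.27 to 0.54, and the collagen median of 0.27 from 0.058 to 0.61. The integrin median of -0.035 turns positive with library size alone.

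The genes whose profile over the 6 libraries was closest to ITGB1, by the root mean square difference of centred log2 CPM, were SKA3 at 0.0195, LYAR at 0.0202 and TLNRD1 at 0.0235. For ITGB4, the member with the largest absolute fold change, they were LGR4 at 0.0743, TMEM54 at 0.0800 and AK1 at 0.0800. With 2 groups of 3 libraries this measure mostly finds genes with the same difference between groups, among 12706 genes searched.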

How the data were processed

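The deposited values are raw counts, whole numbers for each Ensembl gene in each of 6 libraries, left unnormalized by the authors. The submitters' processing notes list build hg38 and the tools DESeq2 1.30.1, featureCounts 2.0.1, STAR 2.7.0d and Trim Galore 0.6.6. Which annotation was counted, whether by strand, and how reads with several alignments were treated is not given in the sources used here. A name table covered 60261 identifiers, and GENCODE release 29 (GRCh38) covered 58542; GENCODE gave positions, exon lengths, exonic overlap on either strand and 3′ UTRs (the longest of a gene's basic protein-coding transcripts).

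Genes were filtered with filterByExpr (minimum count 10) and tested with edgeR 4.0.16 (TMM, robust quasi-likelihood, group as the only term) in R 4.3.3, with Benjamini-Hochberg adjustment over 17223 genes. Standard errors derive from the test statistic. Log2 CPM used a prior count of 2 and ratios a pseudocount of 0.5. The gene test was tested on simulated data. Alternatives were RLE, upper-quartile and library-size scaling, other filters, DESeq2 1.42.0, thinning to the smallest library, a replicate block and leaving out each library. The members and lists were chosen with earlier results of these data known, and so were the words. The rule for named genes took all members and, per list, the called genes with a mean log2 CPM of at least 1 that rose most and fell most, up to 2 each way, or the 2 smallest p-values where none was called, and the 3 closest profiles to ITGB1 and to the member with the largest absolute change; 1 gene of the rule is not reported here. A planned view of protein tails was not analysed here.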

Additional observations from a re-analysis of the deposited data

How the results depend on the processing

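Over 14 alternative settings, the calls and directions of ITGA2, ITGA3, ITGA5, ITGAV, ITGB1, ITGB3 and ITGB4 held; ITGB5, ITGA6 and ITGA4 did not. With library size alone 5 members were higher and 3 lower in place of 4 and 5. In that setting 4 adaptors, 3 folding and trafficking genes, 5 membrane partners and 0 collagen chains were lower, and 5 signalling genes higher; COL6A1 turned to 0.0019 and ITGB5 to 0.055. With upper-quartile factors 1 collagen chain was lower. Without a filter, and with DESeq2, 1 activity regulator was higher. With at least 1 CPM in 3 libraries 1 other integrin was higher, since fewer genes were tested. The cause of the other changes was not tested. Leaving out 1 library gave 4 to 5 members lower and 4 higher, and 1 to 2 activity regulators higher. ITGA4 ranged from -0.017 without Sh1 library 1 to 0.057 without Sh1 library 3. The ITGB4 to ITGB1 difference ranged from -0.24 to 0.015, the higher value without Sh1 library 3. With the replicate number as a block, 4 members were higher and 5 lower, and no member changed its call. Same-numbered libraries deviated from their group means with correlations of -0.000751, -0.00642 and -0.0235. Such values cannot show whether these libraries were prepared together, and the labels do not pair them. Over all settings, 4558 to 6986 genes were higher and 3855 to 5401 lower. Counts of ITGB3 and ITGB4, at 58 to 319 a library, limit the precision of their values.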
